A study of Mus musculus with 14 samples.

Results

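The genes described here are 10 members of the interleukin-6 (IL-6) signalling pathway in mouse liver: the cytokine *Il6*, the receptor chains *Il6ra*, *Il6st*, *Osmr* and *Lifr*, the transcription factor *Stat3*, and the feedback inhibitors *Socs1*, *Socs2*, *Socs3* and *Cish*. They were taken by gene symbol from a table of 25212 genes, and all 10 were found. RNA was sequenced from 14 livers, 1 library per liver, to ask what diversion of bile to the ileum or gastric bypass does to hepatic gene expression. All mice were male C57BL/6 mice made obese on a high-fat diet (HFD) that started at 6 weeks of age, lasted 12 weeks before the operations and continued after them. The DIO group was 5 diet-induced obese mice with no surgery. The GB-IL group was 4 such mice whose gallbladder had been joined to the ileum, and the RYGB group was 5 such mice with Roux-en-Y gastric bypass. The livers of all groups carry a label of 8 weeks. The DIO mice had no operation at all, so that effects of an operation in general and of the rerouted bile or food cannot be told apart in the comparisons with DIO.

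IL-6 binds its own receptor chain IL-6Rα (*Il6ra*), and the pair then engages gp130 (*Il6st*), the signalling chain shared by the whole cytokine family. The chains encoded by *Osmr* and *Lifr* pair with gp130 for oncostatin M and leukaemia inhibitory factor. Janus kinases on these receptors phosphorylate STAT3, which enters the nucleus, induces the acute phase proteins of hepatocytes and induces *Socs3*, whose product blocks gp130 and its kinases in a negative feedback loop. *Socs2* and *Cish* encode related inhibitors that in liver are best known as targets of STAT5, the factor activated by growth hormone. Only RNA was measured, and phosphorylation was not.

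The total count per liver was 18440676 to 21473005 in DIO, 19231679 to 26131278 in GB-IL and 18223135 to 28656631 in RYGB. Levels are given in CPM, the count of a gene relative to the total count of its library, after scaling of the totals by edgeR's TMM method. The hepatocyte markers summed to at least 79019 CPM in every liver. GB-IL liver 4 stood apart from its group: it had a score of -35.3 on the main axis of variation (48.5% of the variance), among the DIO livers at -45.7 to -21.9, whereas the other GB-IL livers scored 20.1 to 134. Counts of called genes in GB-IL are therefore also given without this liver, as are single values where leaving it out changed a call. This liver was singled out by the same expression values, so leaving it out favours larger differences between GB-IL and DIO. In whole liver, fewer cells of a type and less RNA per cell cannot be told apart.

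*Socs3* was the only one of the 10 genes that passed edgeR's quasi-likelihood test in any comparison of all livers. Among the 9 genes whose promoters were read, all but *Socs2*, it was the only one with the motif that STAT dimers bind. Whether this site plays a part in its level was not tested. Promoters were read for 9 of the 10 genes from RefSeq (build GRCm38.p6), as 250 bases upstream of each of 10 start sites. The motif searched was TTCNNNGAA, which reads the same on both strands, and its narrower form TTCCNGGAA, which it includes. TTCNNNGAA was present in 7.02% of 32851 mouse promoters of this length and TTCCNGGAA in 0.913%. Among the promoters of these 9 members, TTCNNNGAA was found once, in *Socs3*, and TTCCNGGAA was not found. A single gene of 9 is too few to set against the share of all promoters. The site in *Socs3* begins at position -154 relative to the RefSeq start. The promoter stretches of *Socs3* and *Stat3* are shown because *Socs3* carries the site and *Stat3*, the gene of the factor itself and the tested member whose pattern across livers was most like that of *Socs3*, does not. The first runs along chr11:117969452-117969616 and the second along chr11:100939541-100939790, both on the minus strand and outside annotated exons, with the motif in capitals. The *Socs3* stretch is 165 of the 250 bases read and lies within the *Socs3* gene model. The bases nearest the RefSeq start lie in annotated exons and are not shown. Position -154 is counted from that start, not from the end of the printed stretch.
Socs3: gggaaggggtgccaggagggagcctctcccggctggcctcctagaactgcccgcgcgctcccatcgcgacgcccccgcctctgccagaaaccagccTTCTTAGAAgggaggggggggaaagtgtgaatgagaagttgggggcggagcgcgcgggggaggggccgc
Stat3: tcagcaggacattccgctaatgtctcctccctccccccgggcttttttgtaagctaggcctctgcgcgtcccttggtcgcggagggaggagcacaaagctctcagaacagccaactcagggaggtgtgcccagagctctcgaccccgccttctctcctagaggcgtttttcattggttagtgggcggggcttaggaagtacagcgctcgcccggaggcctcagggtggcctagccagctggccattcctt

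To compare the genes with each other, CPM were divided by the exon length of each gene in GENCODE M21, with the exons of all its transcripts joined (CPM per kb). Comparisons between genes depend on these lengths, and the annotation used for the counting is not stated. In the DIO livers gp130 (*Il6st*), at 14.1 ± 2.30 CPM per kb (SD, n = 5), *Lifr*, at 14.1 ± 4.59, and *Stat3*, at 13.3 ± 2.07, were the most abundant, and their livers overlapped. *Il6ra* followed at 6.09 ± 2.75 CPM per kb, with no DIO liver in the range of *Stat3*. *Socs3* at 4.00 ± 1.29, *Cish* at 3.08 ± 3.09 and *Socs2* at 1.44 ± 1.05 CPM per kb came next, each overlapping the gene before it. *Osmr*, at 0.383 ± 0.123 CPM per kb, lay below *Socs2* in every DIO liver (highest *Osmr* 0.527, lowest *Socs2* 0.565). Without the division by length these genes overlapped (highest *Osmr* 6.38 CPM, lowest *Socs2* 5.39 CPM). *Socs1*, at 0.104 ± 0.0555 CPM per kb, lay below *Osmr*, and *Il6*, at 0.00431 ± 0.00963, lay below *Socs1*, with no overlap in CPM per kb. The chains for IL-6 and LIF were thus abundant, and there was very little RNA for the cytokine itself. In GB-IL livers 1, 2 and 3, *Socs3* reached 56.7, 25.4 and 15.4 CPM per kb, above the 13.6, 10.4 and 13.03 CPM per kb of *Il6st* in the same livers. In GB-IL liver 4, and in all DIO and RYGB livers, *Socs3* was below *Il6st*. Without the division by length, *Socs3* was above *Il6st* in GB-IL liver 1 only (164 and 151 CPM). It was then below *Il6st* in GB-IL liver 2 (73.4 and 116 CPM) and GB-IL liver 3 (44.6 and 145 CPM).

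The spread within a group also differed between the genes. In the DIO livers the coefficient of variation of the CPM was 15.6% for *Stat3*, 16.3% for *Il6st* and 32.3% to 45.2% for *Osmr*, *Socs3*, *Lifr* and *Il6ra*. It was 72.9% for *Socs2* and 101% for *Cish*, both highest in DIO liver 2. In the GB-IL livers the coefficient of variation was 44.3% for *Stat3*, 11.3% for *Il6st*, 106% for *Socs2* and 53.4% for *Cish*. The tests below used a spread estimated over all groups, not that of the DIO livers alone.

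**Figure D1:**
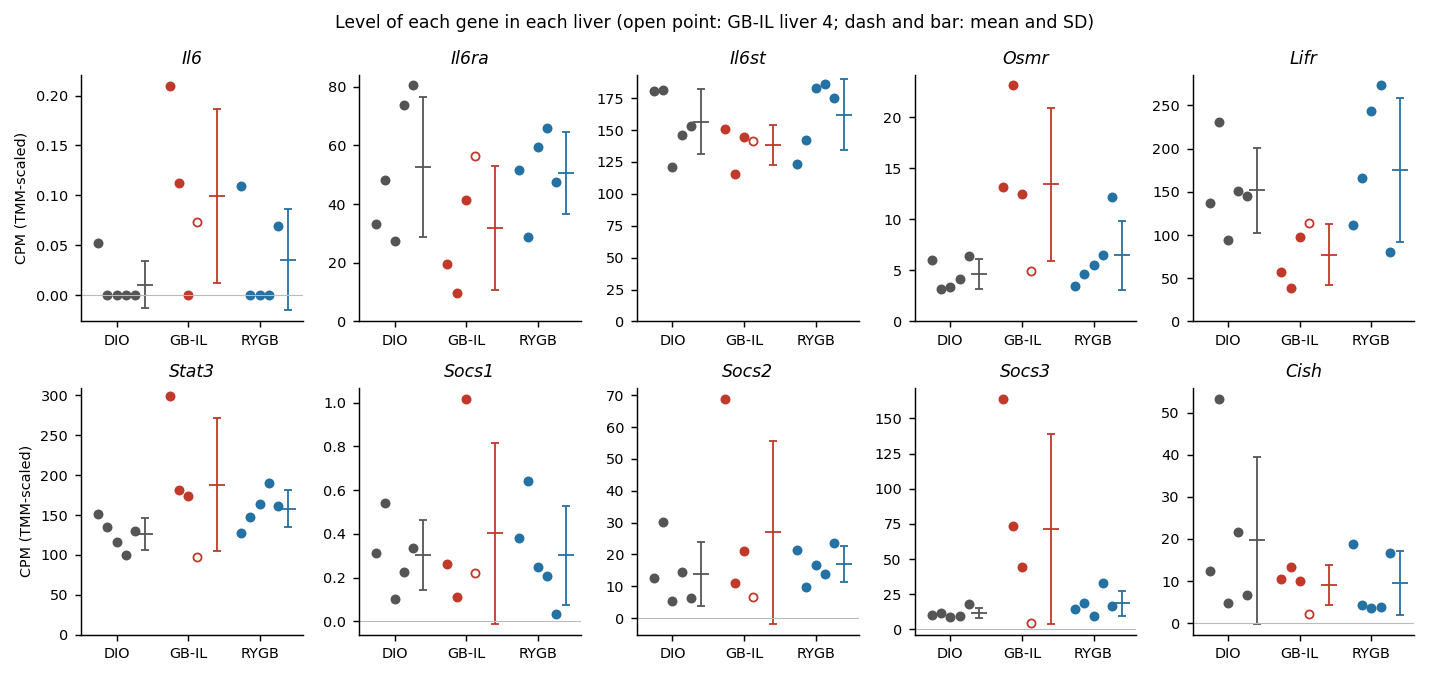
Level of each of the 10 genes in each liver, in CPM on a linear axis with its own range for each gene. Points are livers in the order of their numbers, the open point is GB-IL liver 4, and the dash and bar give the mean and SD of each group. For *Socs3*, GB-IL livers 1 to 3 lie at 44.6 to 164 CPM and GB-IL liver 4 at 4.79, below every DIO liver.

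The first comparison was of GB-IL with DIO, that is, of livers with bile diverted to the ileum and unoperated obese livers. *Socs3* was higher in GB-IL by a log2 fold change of 2.63, and it was the only one of the 8 testable genes that passed the threshold. *Osmr* and *Stat3* were higher and *Lifr* lower at an unadjusted p below 0.05, without passing the adjusted threshold. *Il6* and *Socs1* had too few counts to be tested in this fit.

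The ligand *Il6* (chr5:30013114-30019981) was almost undetected. It had 1, 0, 0, 0 and 0 counts in DIO livers 1 to 5, 4, 2, 0 and 2 counts in GB-IL livers 1 to 4, and 2, 0, 0, 0 and 2 counts in RYGB livers 1 to 5. A count of 0 still allows up to 3 counts in a liver. The summed counts, 8 in GB-IL and 1 in DIO, gave a ratio of rates of 8.93 with an exact 95% interval of 1.197 to 396, which covers counting error only. Over livers the difference gave p = 0.0952 in an exact two-sided permutation test, which can reach 0.0159 with 4 and 5 livers. The exact permutation p was 0.214 without GB-IL liver 4. Whether *Il6* RNA differed between the groups was not detectable at this depth.

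*Il6ra* (chr3:89864059-89913196), the chain that gives a cell its sensitivity to IL-6, had 33.2, 48.1, 27.5, 73.7 and 80.6 CPM in DIO livers 1 to 5. In GB-IL livers 1 to 4 it had 19.7, 9.70, 41.4 and 56.6 CPM. GB-IL livers 1 and 2 were below every DIO liver, and GB-IL livers 3 and 4 were within the DIO range. The log2 fold change was -0.72 (SE 0.446, 95% interval -1.67 to 0.23) with an adjusted p of 0.327 in edgeR's quasi-likelihood test.

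*Il6st* (chr13:112464070-112510086), which encodes gp130, had 181, 181, 121, 146 and 153 CPM in DIO livers 1 to 5. It had 151, 116, 145 and 141 CPM in GB-IL livers 1 to 4. Only GB-IL liver 2 was outside the DIO range, on the low side. The log2 fold change was -0.18 (SE 0.183), and its 95% interval of -0.57 to 0.21 is the narrowest among the 8 genes. The adjusted p was 0.541 by edgeR.

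*Osmr* (chr15:6813577-6874969), the oncostatin M receptor chain, had 6.06, 3.19, 3.40, 4.12 and 6.38 CPM in DIO livers 1 to 5. In GB-IL livers 1 to 4 it had 13.2, 23.2, 12.5 and 4.90 CPM. GB-IL livers 1 to 3 were above every DIO liver, and GB-IL liver 4 was within their range. The fitted fold was 2.89 (95% interval 1.56 to 5.35, log2 fold change 1.53, SE 0.417), with an adjusted p of 0.0582 by edgeR, just outside the threshold. Without GB-IL liver 4 the log2 fold change was 1.80 and the adjusted p 0.00527, and over all alternatives the adjusted p lay between 0.00527 and 0.201.

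*Lifr* (chr15:7090614-7197489), the LIF receptor chain, had 137, 231, 94.2, 151 and 145 CPM in DIO livers 1 to 5. It had 57.0, 38.6, 98.1 and 114 CPM in GB-IL livers 1 to 4. GB-IL livers 1 and 2 were below every DIO liver, and the other two were in the lower part of the DIO range. The fitted fold was 0.508 (95% interval 0.283 to 0.912, log2 fold change -0.98, SE 0.396), with an adjusted p of 0.165 by edgeR and 0.0474 without GB-IL liver 4. The range of the adjusted p over the alternatives was 0.0474 to 0.377.

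*Stat3* (chr11:100885098-100939540) had 152, 135, 116, 99.96 and 130.3 CPM in DIO livers 1 to 5. In GB-IL livers 1 to 4 it had 299, 182, 174 and 97.4 CPM. GB-IL livers 1 to 3 were above every DIO liver, and GB-IL liver 4 was below every DIO liver. The fitted fold was 1.49 (95% interval 1.02 to 2.17, log2 fold change 0.57, SE 0.256), with an adjusted p of 0.201 by edgeR. Without GB-IL liver 4 it was 1.71 with an adjusted p of 0.0197, and without GB-IL liver 1, the highest, the log2 fold change was 0.25 with an adjusted p of 0.607. The 3′ ends of the *Stat3* and *Stat5a* gene models lie on opposite strands of the same locus and overlap, and the strand setting of the counting is not given in the sources used here, so reads in the overlap cannot be assigned to either gene with certainty. *Stat5a* had 4383 counts over all livers, and *Stat3* had 1769 or more in each.

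*Socs3* (chr11:117966079-117970047) had 9.88, 11.7, 8.84, 9.38 and 18.0 CPM in DIO livers 1 to 5. In GB-IL livers 1 to 4 it had 164, 73.4, 44.6 and 4.79 CPM. GB-IL livers 1 to 3 were above every DIO liver, and GB-IL liver 4 was below every DIO liver, so that the highest and the lowest *Socs3* level among these 9 livers were both in GB-IL, 34.2-fold apart. The group means were 71.7 ± 67.6 CPM in GB-IL (n = 4) and 11.55 ± 3.74 CPM in DIO (n = 5). The fitted fold was 6.19 (95% interval 2.42 to 15.8, log2 fold change 2.63, SE 0.635), with an adjusted p of 0.0383 by edgeR. Without GB-IL liver 4 the fold was 8.07 and the adjusted p 0.000594. The adjusted p was over 0.05 without any one of DIO livers 1 to 5, GB-IL livers 1 and 2 and RYGB livers 1 to 3, at up to 0.157, and the call was kept in 4 of 14 fits that left out 1 liver. Among these 14 fits the fold change was least without GB-IL liver 1, at 1.82 on the log2 scale, and with voom and quality weights, a further model, it was 1.44 with an adjusted p of 0.239.

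*Socs1* (chr16:10782240-10785536), a further inhibitor of Janus kinases, had 6, 11, 2, 4 and 7 counts in DIO livers 1 to 5 and 5, 2, 24 and 6 counts in GB-IL livers 1 to 4. GB-IL liver 3 alone was above the DIO range. The ratio of rates was 1.38 (exact 95% interval 0.827 to 2.31, counting error only), with p = 0.746 in the exact two-sided permutation test over livers and 0.607 without GB-IL liver 4.

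*Socs2* (chr10:95385362-95417180) had 12.4, 30.3, 5.39, 14.5 and 6.19 CPM in DIO livers 1 to 5 and 68.8, 11.1, 21.1 and 6.56 CPM in GB-IL livers 1 to 4. GB-IL liver 1 was above every DIO liver, and the others lay within the DIO range. The log2 fold change was 0.97 (SE 0.605, adjusted p = 0.332 by edgeR), and without GB-IL liver 1 it was -0.11, so its direction rested on that liver.

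*Cish* (chr9:107296026-107302784) had 12.3, 53.3, 4.83, 21.7 and 6.67 CPM in DIO livers 1 to 5 and 10.6, 13.4, 10.1 and 2.14 CPM in GB-IL livers 1 to 4. GB-IL liver 4 was below every DIO liver and the other three were inside the wide DIO range. The log2 fold change was -1.13 (SE 0.738, adjusted p = 0.347 by edgeR). *Socs3*, *Socs2* and *Cish*, although of 1 gene family, thus gave fitted log2 fold changes of 2.63, 0.97 and -1.13, of which the first passed the test.

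As a group, 1 of the 8 tested genes was called at a false discovery rate (FDR) of 0.05, against 3.26% of the 14252 genes tested. It was 1 of the 4 with a higher fitted level in GB-IL, where 3.15% of all genes were called higher, and none of the other 4 was among the 0.112% called lower. At an unadjusted p below 0.05, 3 genes were higher (*Socs3*, *Osmr* and *Stat3*) and 1 lower (*Lifr*), against 23.1% of all genes. None of the 8 had groups that did not overlap, against 4.17% of all genes. The median log2 fold change of the 8 was 0.20, and that of all genes tested was 0.04. Without GB-IL liver 4 the genes called were *Socs3*, *Osmr* and *Stat3*, higher, and *Lifr*, lower, 4 of the 9 then tested, in a fit that called 24.6% of all genes. DESeq2 called *Socs3* and *Osmr* in a fit with 9.07% of all genes called, and edgeR's exact test called the same genes with 7.92%. In each of these fits the share of all genes called was also higher than in the quasi-likelihood fit of all livers.

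**Figure D2:**
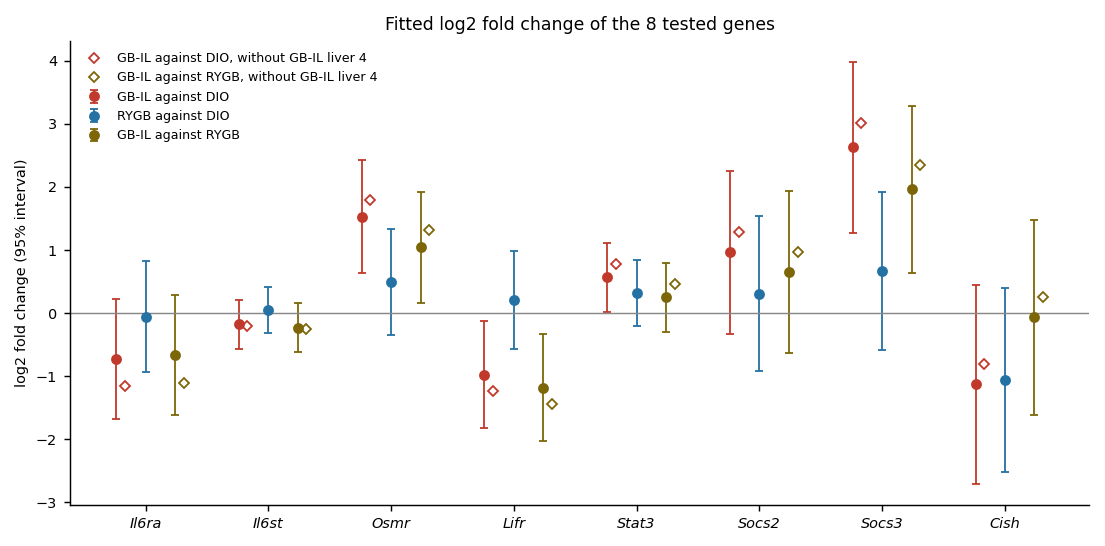
Fitted log2 fold change of the 8 tested genes in the 3 comparisons, with 95% intervals (filled points), and the value without GB-IL liver 4 (open diamonds). *Socs3* in GB-IL against DIO, at 2.63, lies farthest from 0, and the intervals of all 8 genes in RYGB against DIO include 0.

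Because GB-IL liver 4 and the other GB-IL livers differed so much, the test was repeated with each of the 14 livers left out. Without GB-IL liver 4 the adjusted p was 0.000594 for *Socs3*, 0.00527 for *Osmr*, 0.0197 for *Stat3* and 0.0474 for *Lifr*. *Osmr* also passed without RYGB liver 5, the RYGB liver with the highest *Osmr* (12.2 CPM), at 0.0412. *Stat3* and *Lifr* passed in 1 of the 14 fits, *Osmr* in 2 and *Socs3* in 4, and *Il6ra*, *Il6st*, *Socs2* and *Cish* in 0.

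**Figure D3:**
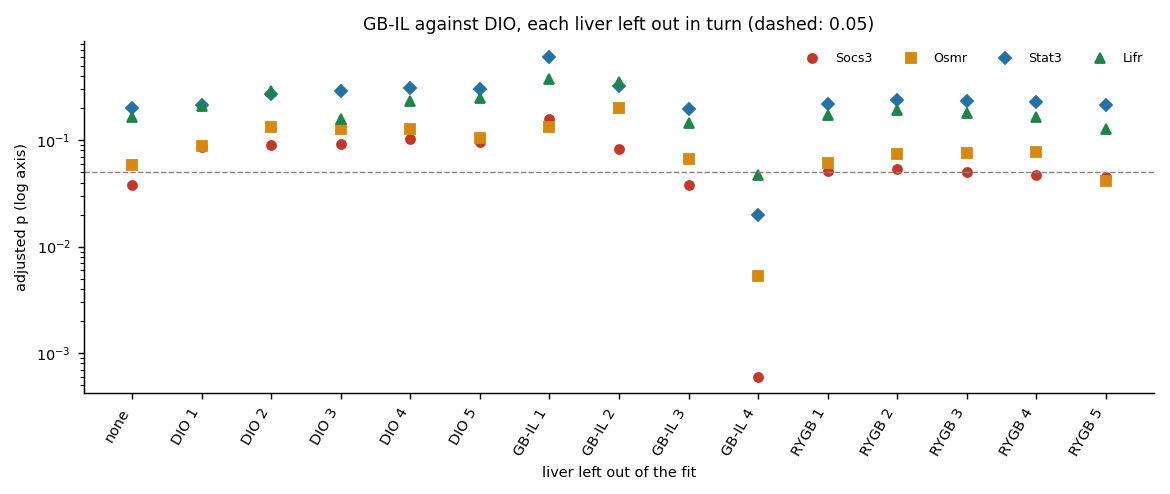
Adjusted p of *Socs3*, *Osmr*, *Stat3* and *Lifr* in GB-IL against DIO (log axis) in the fit of all livers and with each liver left out in turn. All 4 genes lie below the dashed line at 0.05 without GB-IL liver 4, and *Socs3* ranges from 0.000594 without that liver to 0.157 without GB-IL liver 1.

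Neutrophil and cholangiocyte markers moved with these levels. The neutrophil markers summed to 2.49 to 5.28 CPM in the DIO livers, to 105, 43.8 and 310 CPM in GB-IL livers 1, 2 and 3 and to 2.47 CPM in GB-IL liver 4. All 4 tested of the 7 markers were called higher in GB-IL, in the fit of all livers that called 3.15% of all genes higher. The markers *Ly6g*, *Mpo* and *Camp* did not pass the filter and were not tested. The cholangiocyte markers summed to 30.4 to 65.7 CPM in DIO, to 318, 259 and 218 CPM in GB-IL livers 1 to 3 and to 58.0 CPM in GB-IL liver 4, with 3 of 5 tested called higher. In the fits without 1 liver, 0 of these markers were called without any one of the DIO livers or of GB-IL livers 1 and 2, and 0 of the neutrophil markers without GB-IL liver 3. The livers with high *Socs3*, *Osmr* and *Stat3* in GB-IL were therefore also those with high neutrophil and cholangiocyte markers. Their order was not the same: *Socs3* was highest in GB-IL liver 1 and the neutrophil markers in GB-IL liver 3. Of the Kupffer cell and macrophage markers 2 of 8 were called higher (360 to 630 CPM in DIO and 405 to 1799 CPM in GB-IL), and of the stellate cell and fibroblast markers 1 of 7 (199 to 320 and 234 to 874 CPM). These did not follow *Socs3* in GB-IL. The Kupffer cell and macrophage markers were at 405 CPM in GB-IL liver 1 and at 769 CPM in GB-IL liver 4, above every DIO liver. The stellate cell and fibroblast markers were at 319 CPM in GB-IL liver 4 and at 294 and 234 CPM in GB-IL livers 2 and 3. No hepatocyte, endothelial, T and NK cell or B cell marker was called by the quasi-likelihood test of all livers. That test without GB-IL liver 4 called 1 hepatocyte marker higher and 2 lower, 4 cholangiocyte markers higher, 4 neutrophil and 2 Kupffer cell markers higher, and of the stellate cell markers 2 higher and 1 lower. In the same fit 15.4% of all genes were called higher and 9.27% lower. Voom called 1 hepatocyte marker lower, where 0.554% of all genes were called lower. No marker of any list had 0 counts in all livers. The hepatocyte markers summed to 115362 to 135649 CPM in DIO and to 79019 to 115316 CPM in GB-IL. The part of these cell types in the levels of the 10 genes was not tested.

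The other genes of the pathway were described with lists chosen by function. Of 12 other cytokines and receptor chains of the family, 6 could be tested and 1 was called, against 3.26% of all genes tested. *Clcf1*, which encodes a cytokine that signals through gp130 and LIFR, rose from 0.967 ± 0.241 CPM in DIO to 11.5 ± 13.9 CPM in GB-IL (log2 fold change 3.56, adjusted p = 0.0278 by edgeR). It was above every DIO liver in 3 of the 4 GB-IL livers, and its adjusted p was 0.000778 without GB-IL liver 4 but over 0.05, at up to 0.0942, without any one of the 5 DIO livers or of GB-IL livers 1 and 2. The cytokine genes *Lif* and *Osm*, whose products are the ligands of *Lifr* and *Osmr*, had 27 and 29 counts over all 14 livers and were not tested.

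None of the 10 genes for Janus kinases and other STATs was called by the quasi-likelihood test, and 2 had an unadjusted p below 0.05, against 23.1% of all genes. These were *Stat5a* (log2 fold change -0.80, adjusted p = 0.0962 by edgeR) and *Stat5b* (-0.63, adjusted p = 0.138), which mediate growth hormone signals. Both were below every DIO liver in 3 of the 4 GB-IL livers. DESeq2 called 1 of the 10 lower, with 1.30% of all genes called lower. Both were called lower without GB-IL liver 4 (adjusted p = 0.0256 and 0.0482 by edgeR), with 9.27% of all genes. *Stat3* was thus the only member of its gene family with a higher level at an unadjusted p below 0.05.

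Of 13 other inhibitors of the pathway, 1 was called, against 3.26% of all genes tested. *Ptpn2*, a phosphatase that acts on Janus kinases and STATs, rose from 8.96 ± 1.17 CPM in DIO to 17.9 ± 7.39 CPM in GB-IL (log2 fold change 1.00, adjusted p = 0.0365 by edgeR). Its adjusted p was 0.00189 without GB-IL liver 4 but over 0.05, at up to 0.129, without any one of the DIO livers, GB-IL livers 1 and 2 and RYGB livers 2 to 4. *Ptpn1*, a related phosphatase, had a log2 fold change of 0.52 with an adjusted p of 0.147, and without GB-IL liver 4 of 0.00774. The fit without that liver called 15.4% of all genes higher.

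The acute phase list holds genes chosen as acute phase targets of STAT3. Neither their dependence on STAT3 nor the cell type that made their RNA was tested. Of 19 genes, 14 rose and none fell in the quasi-likelihood test, where 3.15% of all genes were called higher, and all 19 had a higher fitted level. The median of their log2 fold changes was 2.37, and over all genes it was 0.04. *Saa2*, a serum amyloid A gene, went from 63.5 ± 61.3 CPM in DIO to 4421 ± 6901 CPM in GB-IL, with a log2 fold change of 6.12 (adjusted p = 0.0278 by edgeR). *Saa3* had 3.89, *Orm1*, the gene of orosomucoid, 3.18, and *Cd14*, the co-receptor of endotoxin, 5.22, each with an adjusted p of 0.0278 by edgeR. Of the 4, *Cd14* was above every DIO liver in all 4 GB-IL livers, and the others in 3. The number of acute phase genes called was 17 without GB-IL liver 4, with 15.4% of all genes called higher, 9 without GB-IL liver 3, with 3.74%, and 0 without any one of the DIO livers or of GB-IL livers 1 and 2, where the smallest adjusted p of the list was 0.0581 to 0.0942. It was 17 by DESeq2 (7.77% of all genes called higher), 17 by edgeR's exact test (7.24%), 8 by voom (3.58%) and 0 in the fit of only the 2 groups. Of 13 early STAT3 targets, mostly transcription factors, none was called and 6 had a higher level at an unadjusted p below 0.05, against 23.1% of all genes in either direction. The log2 fold change of *Junb* was 1.98 (adjusted p = 0.0632 by edgeR). DESeq2 called 5 of the 13 and edgeR's exact test 2, all higher. In the fit without GB-IL liver 4, which called 24.6% of all genes, 7 of the 13 were called higher and 1 lower. The 1 lower was *Ccnd1*, the gene of cyclin D1 (adjusted p = 0.00281 by edgeR), which is named after its values were seen.

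A further list holds 12 genes of the growth hormone and STAT5 arm other than *Cish* and *Socs2*. Of these 12, 11 had a lower level in GB-IL and the median of the log2 fold changes was -1.36, but none was called by the quasi-likelihood test and 4 had an unadjusted p below 0.05, against 23.1% of all genes. For *Onecut1* the log2 fold change was -2.77 (adjusted p = 0.0803 by edgeR). Its levels were 9.55 ± 13.3 CPM in DIO, an SD above the mean, and 1.37 ± 1.13 CPM in GB-IL. In RYGB it was at 2.43 ± 0.975 CPM, with a log2 fold change of -1.97 against DIO (adjusted p = 0.507 by edgeR). *Igfals*, which encodes a growth hormone-induced carrier of IGF1 in blood, had 110 ± 24.5 CPM in DIO and 41.5 ± 40.8 CPM in GB-IL, with a log2 fold change of -1.40 (adjusted p = 0.188). *Igf1* itself, of the same list, had 461 ± 25.3 CPM in DIO and 447 ± 53.3 CPM in GB-IL. Its log2 fold change was -0.04 (adjusted p = 0.892 by edgeR). DESeq2 and edgeR's exact test each called 2 of the 12 lower, in fits that called 1.30% and 0.681% of all genes lower. Leaving out GB-IL liver 4, 4 were called lower, with 9.27% of all genes. All of these lists were chosen with earlier results of these data known.

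**Figure D4:**
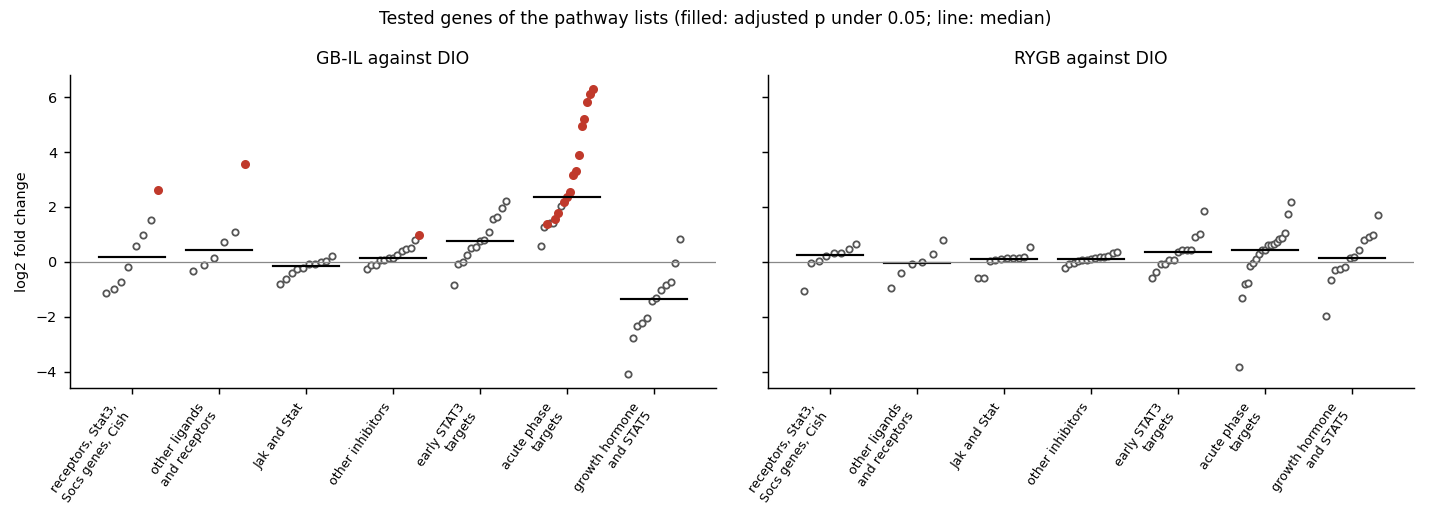
Log2 fold change of every tested gene of 7 lists in GB-IL against DIO and in RYGB against DIO. Filled points passed an adjusted p of 0.05 and the black line is the median of a list. In GB-IL 14 of 19 acute phase genes are filled, with a median of 2.37, and in RYGB no point is filled.

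The second comparison was of RYGB with DIO. None of the 8 genes was called by the quasi-likelihood test, by DESeq2 or by edgeR's exact test, and none had an unadjusted p below 0.05 in the quasi-likelihood test. That test called 0.00% of all genes in this comparison, and 8.71% of all genes had an unadjusted p below 0.05. None of the 8 had groups that did not overlap, against 3.53% of all genes. The adjusted p values ranged from 0.690 to 0.978.

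*Socs3* had 14.5, 18.5, 9.63, 32.9 and 16.4 CPM in RYGB livers 1 to 5. RYGB livers 2 and 4 were above every DIO liver, and the others were within the DIO range. The log2 fold change was 0.67 (95% interval -0.58 to 1.92), and the interval does not exclude a rise of up to 3.79-fold. *Stat3* had 127, 147, 163, 191 and 161 CPM in RYGB livers 1 to 5. RYGB livers 3, 4 and 5 were above every DIO liver, and the log2 fold change of 0.32 had a 95% interval of -0.20 to 0.84.

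For the receptor chains the intervals bounded the change in RYGB more closely in 1 case than in the others. *Il6st* had 123, 143, 183, 186 and 175 CPM in RYGB livers 1 to 5, with 2 livers above every DIO liver, a log2 fold change of 0.05 and a 95% interval of -0.32 to 0.42. *Il6ra* had 51.8, 28.8, 59.4, 65.9 and 47.4 CPM, all within the DIO range, and a log2 fold change of -0.06 (-0.94 to 0.83).

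*Lifr* had 111, 166, 244, 274 and 80.0 CPM in RYGB livers 1 to 5, with livers 3 and 4 above and liver 5 below every DIO liver, and a log2 fold change of 0.21 (-0.57 to 0.99). *Osmr* had 3.49, 4.68, 5.52, 6.49 and 12.2 CPM, with livers 4 and 5 above every DIO liver and a log2 fold change of 0.49 (-0.36 to 1.33). RYGB liver 5 had the highest *Osmr* and the lowest *Lifr* of its group, and it was also the RYGB liver with high neutrophil markers, at 80.7 CPM against 3.497 to 7.65 CPM in the other RYGB livers. It also had the highest endothelial markers, at 481 CPM against 152 to 258, and the highest stellate cell and fibroblast markers, at 485 CPM against 275 to 362. The part of these cell types was not tested. Without this liver the log2 fold change of *Osmr* was 0.14.

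*Cish* had 18.8, 4.38, 3.69, 3.801 and 16.6 CPM in RYGB livers 1 to 5. RYGB livers 2, 3 and 4 were below every DIO liver. With a log2 fold change of -1.06 (SE 0.685, 95% interval -2.53 to 0.40) it had the smallest adjusted p of the 8 genes, 0.690 by edgeR. *Socs2* had 21.3, 9.75, 16.7, 13.7 and 23.7 CPM, all within the DIO range. *Socs1* had 7, 13, 7, 5 and 1 counts, with a ratio of rates of 0.894 (exact 95% interval 0.529 to 1.52) and p = 0.992 in the exact permutation test. *Il6* had 4 counts in RYGB and 1 in DIO, with a ratio of rates of 3.25 (0.322 to 160.1) and an exact permutation p of 0.444.

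No gene of the 6 other pathway lists was called in RYGB by the quasi-likelihood test. Of the acute phase genes, 13 of 19 were at a higher and 6 at a lower level, and the median of their log2 fold changes was 0.43. For the growth hormone list this median was 0.16. DESeq2 and edgeR's exact test each called 1 acute phase gene, lower, where they called 33 and 18 of all 14252 genes lower. Of the 19 acute phase genes, 4 had an unadjusted p below 0.05 by the quasi-likelihood test, 3 higher and 1 lower, against 8.71% of all genes.

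The third comparison, of GB-IL with RYGB, set the operations against each other and used the same GB-IL and RYGB livers as the comparisons above. None of the 8 genes was called by the quasi-likelihood test, which called 0.00% of all genes. At an unadjusted p below 0.05, *Socs3* and *Osmr* were higher and *Lifr* was lower in GB-IL, that is 3 of 8, against 22.1% of all genes. None of the 8 had groups that did not overlap, against 2.84% of all genes.

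*Socs3* had a log2 fold change of 1.96 (SE 0.621, 95% interval 0.64 to 3.29, adjusted p = 0.118 by edgeR). GB-IL livers 1 to 3 were above every RYGB liver and GB-IL liver 4 was below every one. *Lifr* had a log2 fold change of -1.18 (SE 0.398, 95% interval -2.03 to -0.33, adjusted p = 0.136), and GB-IL livers 1 and 2 were below every RYGB liver. *Osmr* had a log2 fold change of 1.04 (SE 0.412, adjusted p = 0.173), and GB-IL livers 1 to 3 were above every RYGB liver. *Stat3*, at a log2 fold change of 0.25 (95% interval -0.30 to 0.80), did not separate the operations.

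DESeq2 called *Socs3* and *Lifr* in this comparison, with adjusted p values of 0.0277 and 0.0474, in a fit that called 5.93% of all genes. The exact test of edgeR called *Socs3* (adjusted p = 0.0376) with 4.78% of all genes called. Without GB-IL liver 4 the quasi-likelihood test called *Socs3* (adjusted p = 0.00429), *Osmr* (0.0255) and *Lifr* (0.0313), 3 of the 9 genes then tested, with 21.5% of all genes called. The range of the adjusted p over all alternatives was 0.00429 to 0.431 for *Socs3*, 0.0255 to 0.499 for *Osmr* and 0.0313 to 0.311 for *Lifr*.

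Ratios of a pair of genes within a liver do not depend on how livers are scaled to each other. Of 12 comparisons of 4 ratios, none passed after adjustment, and 3 had an exact permutation p below 0.05. The log2 ratio of *Osmr* to *Lifr* counts was -4.50, -6.16, -4.78, -5.19 and -4.50 in DIO livers 1 to 5, and -2.11, -0.73, -2.97 and -4.54 in GB-IL livers 1 to 4. GB-IL livers 1 to 3 were above every DIO liver. The difference of the means was 2.43, with p = 0.0476 in the exact two-sided permutation test and 0.190 after adjustment over the 12.

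In RYGB this ratio was -4.98, -5.14, -5.46, -5.40 and -2.71 in livers 1 to 5. Against RYGB the GB-IL mean was higher by 2.15 (exact permutation p = 0.0476, adjusted 0.190), and 2 of the 4 GB-IL livers were above every RYGB liver. RYGB liver 5 lay among the GB-IL livers on this measure.

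The log2 ratio of *Socs3* to *Cish* set the STAT3 feedback gene against a STAT5 target. It was -0.31, -2.18, 0.87, -1.21 and 1.42 in DIO livers 1 to 5 and 3.95, 2.46, 2.14 and 1.16 in GB-IL livers 1 to 4. GB-IL liver 4, although low in both genes, was above 4 of the 5 DIO livers on this ratio, and the other GB-IL livers were above all 5. The difference of the means was 2.71, with an exact permutation p of 0.0317 and 0.190 after adjustment. For RYGB the difference from DIO was 1.51 (exact permutation p = 0.159).

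The ratios of *Il6ra* to *Il6st* and of *Socs3* to *Socs2* differed less. In GB-IL against DIO their differences were -0.73 (exact permutation p = 0.238) and 1.17 (exact permutation p = 0.206). None of the 4 ratios without GB-IL liver 4 passed after adjustment in either comparison of GB-IL, each with an adjusted p of 0.212 in the exact permutation test. With so few livers the permutation test could not pass after this adjustment, so that nothing can be concluded from this result. The smallest p that the permutation test allows is 0.0159 with 4 and 5 livers and 0.00794 with 5 and 5.

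**Figure D5:**
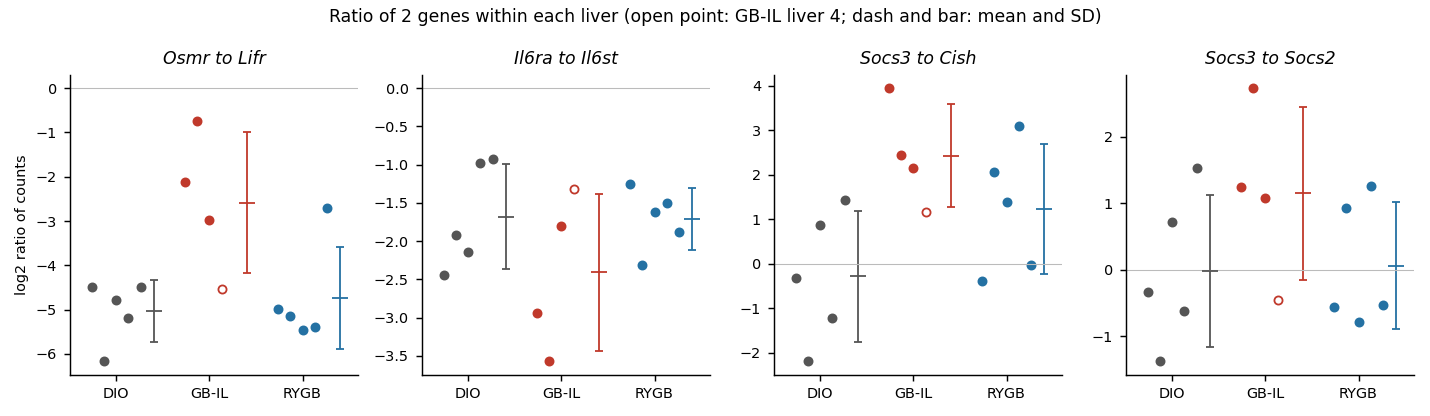
Log2 ratio of the counts of 2 genes within each liver, for 4 pairs of genes. Points are livers, the open point is GB-IL liver 4, and the dash and bar give the mean and SD. For *Osmr* to *Lifr* GB-IL livers 1 to 3 lie at -2.97 to -0.73, above all DIO livers, and RYGB liver 5 lies at -2.71, apart from the other RYGB livers.

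Across the 14 livers, the levels of some members moved together. These correlations of log2 CPM are descriptions: their points share libraries, scaling and the group differences above. Pearson's r was 0.87 between *Stat3* and *Socs3*, 0.76 between *Osmr* and *Socs3*, and 0.67 between *Osmr* and *Stat3*. *Il6ra* and *Lifr* had an r of 0.74, and *Osmr* and *Lifr* an r of -0.69. *Cish* had an r of 0.55 with *Socs2* and between -0.14 and 0.15 with each other tested member. *Il6st* had an r of 0.65 with *Lifr* and of 0.49 with *Il6ra*. *Socs2* had an r of 0.66 with *Stat3* and of 0.55 with *Socs3*, so that it moved with both *Cish* and the STAT3 genes.

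Among all genes tested, those with the highest r to *Socs3* over the 14 livers were *Zfp13* (0.93), *Elmo2* (0.93) and *Sppl3* (0.93). For *Stat3* they were *Itih2* (0.93), *Cwc22* (0.92) and *Zfp37* (0.91). For *Osmr* they were *Marveld3* (0.93), *Ggt5* (0.93) and *Gm4204* (0.93), and for *Lifr* *Gm14149* (0.94), *Prpf8* (0.94) and *Zdhhc5* (0.94). *Il6ra* was matched most closely by *Ppap2b* (0.93), *Tfb2m* (0.92) and *Stau2* (0.92), and *Il6st* by *Gm4887* (0.92) and *Kansl1* (0.90) among others. The best matches of *Socs2* were *Cdc42se2* (0.85), *Ppp1r12b* (0.84) and *Msl1* (0.84). Those of *Cish* were weaker, with *Sap25* at 0.77 and the adult β-globin genes *Hbb-bs* and *Hbb-bt* at 0.74 and 0.74. No gene of the pathway lists was among these.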

How the data were processed

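RNA was sequenced from the livers of 14 mice, 1 library each. Alignment by the authors was with TopHat 2 to mm10, and HTSeq gave the count of reads for each gene. Raw counts were deposited. Of the versions, the annotation and the strand option, none is stated in the sources used here. The paper's methods describe amplification with the Ovation kit, and the labels give 2 stranded TruSeq kits but not which liver had which, and no kit term was fitted. The submitters' processing notes also list hg19.

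Genes were kept by filterByExpr, which left 14252, scaled by TMM and tested with edgeR 4.0.16 (quasi-likelihood, all livers in 1 fit with a mean per group, Benjamini-Hochberg adjustment over all genes, FDR 0.05) in R 4.3.3. The script was tested on simulated data. *Il6* and *Socs1* were given as counts with exact Clopper-Pearson intervals of the ratio of rates and exact permutation tests. Ratios within a liver had 0.5 counts added, and their p-values were adjusted over 12 comparisons. Alternatives were other scalings and filters, DESeq2 1.42.0, robust estimation, limma 3.58.1 (voom with quality weights), the exact test of edgeR, only the 2 groups compared, the replicate number as a block, and each liver left out. P-values measure the spread between these mice.

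Exon lengths and overlaps came from GENCODE M21, in which 24701 of 25212 identifiers were found. The members and gene lists were chosen with earlier results of these data known. Besides the 10 genes, at most 4 genes of each list were named, those with the smallest p in GB-IL against DIO, and the 3 genes most correlated with each tested member, of which 1 is not reported here. *Lif*, *Osm* and *Igf1* were named after their values had been seen.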

Additional observations from a re-analysis of the deposited data

Results flagged for a closer look

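In 42 checks of 10 genes and 4 ratios in 3 groups, a single liver lay far from the rest of its group 3 times by Dixon's criterion, which chance alone meets in about 1 of 20 checks. *Il6* was at 0.0523 CPM in DIO liver 1 and at 0 in the other DIO livers, which is 1 read. *Socs1* was at 1.02 CPM in GB-IL liver 3 (24 counts) and at 0.113 to 0.262 CPM in the other GB-IL livers. The log2 ratio of *Osmr* to *Lifr* was -2.71 in RYGB liver 5 and -5.46 to -4.98 in the other RYGB livers. GB-IL liver 3 and RYGB liver 5 were also the livers of their groups with the highest neutrophil markers, at 310 and 80.7 CPM. GB-IL liver 3 also had the highest Kupffer cell and macrophage, T and NK cell and B cell markers of its group. *Socs1* itself had 1 count in RYGB liver 5, the lowest of that group. It had 5 counts in GB-IL liver 1, where the neutrophil markers were at 105 CPM. The part of these cell types was not tested.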

How the results depend on the processing

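In GB-IL against DIO, 1 member was called. DESeq2 and edgeR's exact test called 2 each, and voom with quality weights, the fit of only the 2 groups and the fit with the replicate number as a block called 0. With each liver left out the number called lay between 0 and 4. In GB-IL against RYGB, where 0 were called, DESeq2 called 2, the exact test 1 and the fits without 1 liver 0 to 3. In RYGB against DIO 0 were called under every alternative. Other scalings and filters and robust estimation changed none of these numbers. For *Socs3* in GB-IL against DIO the adjusted p was 0.239 with voom, 0.116 with only the 2 groups and 0.133 with the block, in which 0 of 19 acute phase genes were called.

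Between the deviations of same-numbered livers, r was -0.38 to 0.38, and it was over 0.1 in 2 of 13 pairs. Whether the number marks a pairing of livers was not tested.

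The following log2 fold changes changed sign. In RYGB against DIO, *Il6ra* was at 0.027 with the total count alone and at -0.22 to 0.15 without 1 liver, *Il6st* at -0.027 to 0.14 and *Lifr* at -0.0057 to 0.42. In GB-IL against RYGB, *Cish* was at 0.55 with voom, at 0.044 with the block and at -0.33 to 0.34 without 1 liver, *Stat3* at -0.075 to 0.46 and *Socs2* at -0.42 to 0.97. *Socs2* in GB-IL against DIO was at -0.11 to 1.49. In RYGB against DIO without 1 liver, the difference in log2 ratio was -0.26 to 0.46 for *Socs3* to *Socs2*, -0.22 to 0.16 for *Il6ra* to *Il6st* and -0.22 to 0.47 for *Osmr* to *Lifr*. The cause of these changes was not tested. Depth limited *Il6* and *Socs1*, whose values without GB-IL liver 4 were added after seeing the data.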
